A study of Mus musculus and Homo sapiens with 10 samples.

Results

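The beta-globin locus of K562 cells was described from the islands, the stretches of enriched chromatin called by the authors, that overlap chr11:5220001-5330000 (hg19) in the H3K122ac, H3K27ac and H3K4me1 lists. The choice of islands rested on position alone, but was made with earlier results of these data known. It took 51 of the 360312 islands of the 3 lists, namely 15 of 72662 for H3K122ac, 28 of 173981 for H3K27ac and 8 of 113669 for H3K4me1. The stretch holds the globin genes HBB, HBD, HBG1, HBG2 and HBE1 and the locus control region (LCR). Positions used were about 5247000 for HBB, 5269000 to 5276000 for HBG1 and HBG2, 5290000 for HBE1 and 5296000 to 5314000 for the LCR. HBD, which lies between HBB and HBG1, was given no position of its own.

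The genes of this cluster encode the beta-like chains of haemoglobin and are used in turn during development. HBE1 encodes the embryonic epsilon chain, HBG1 and HBG2 the fetal gamma chains, HBD the minor adult delta chain and HBB the adult beta chain. The LCR is a distal enhancer cluster on the HBE1 side that acts on all of them and is bound by erythroid factors such as GATA1. K562 is an erythroleukaemia line known for making embryonic and fetal rather than adult globins. H3K122ac is an acetylation in the globular domain of histone H3, where the histone touches DNA. H3K27ac lies on the histone tail and is widely read as a sign of active promoters and enhancers, and H3K4me1 is typical of enhancers and their surroundings.

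K562 cells at passage 14, with no treatment named beyond culture, gave 1 native chromatin library each for H3K122ac, H3K27ac and H3K4me1. Chromatin had been cut with micrococcal nuclease. The study asked whether globular-domain acetylation marks regulatory regions, including ones that H3K27ac does not mark. With 1 library per mark there were no replicates, so no test between marks or regions was made. Intervals below are exact 95% intervals of the read counts and cover counting error only.

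Each list gives reads of the antibody library and of a background library per island. Islands held 18283729 antibody reads for H3K122ac, 34195325 for H3K27ac and 35562145 for H3K4me1. The fold is the authors' ratio of antibody to background reads divided by a library ratio, which was 0.258 for H3K122ac, 0.688 for H3K27ac and 0.581 for H3K4me1. The H3K122ac library was thus the shallowest against the same background. Since depths differ, folds are compared by rank within their own list. All 5183, 4024 and 6083 islands with identical ends in the H3K122ac and H3K27ac, H3K122ac and H3K4me1, and H3K27ac and H3K4me1 lists had equal background counts, so the background reads were shared and cannot separate the marks.

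All 3 marks covered far more of the locus than is usual for a stretch of that length. H3K122ac islands covered 62800 bp, or 57.1% of the 110000 bp, H3K27ac islands 80000 bp (72.7%) and H3K4me1 islands 89600 bp (81.5%). Over 17530 tiles of the same length with an island in at least 1 list, the median coverage was 5.45% for H3K122ac, 8.18% for H3K27ac and 12.5% for H3K4me1. The locus was matched or exceeded by 0.827% of tiles for H3K122ac, 1.05% for H3K27ac and 0.645% for H3K4me1. Coverage was lower on both sides. In the flank of the same length on the HBB side it was 28.9% for H3K122ac, 25.3% for H3K27ac and 34.9% for H3K4me1. In the flank beyond the LCR it was 8.73% for H3K122ac, 44.5% for H3K27ac and 54.4% for H3K4me1. H3K122ac had 3 islands there beside 24 of H3K27ac and 13 of H3K4me1, counts that also depend on depth and on how finely each list is split.

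**Figure D1:**
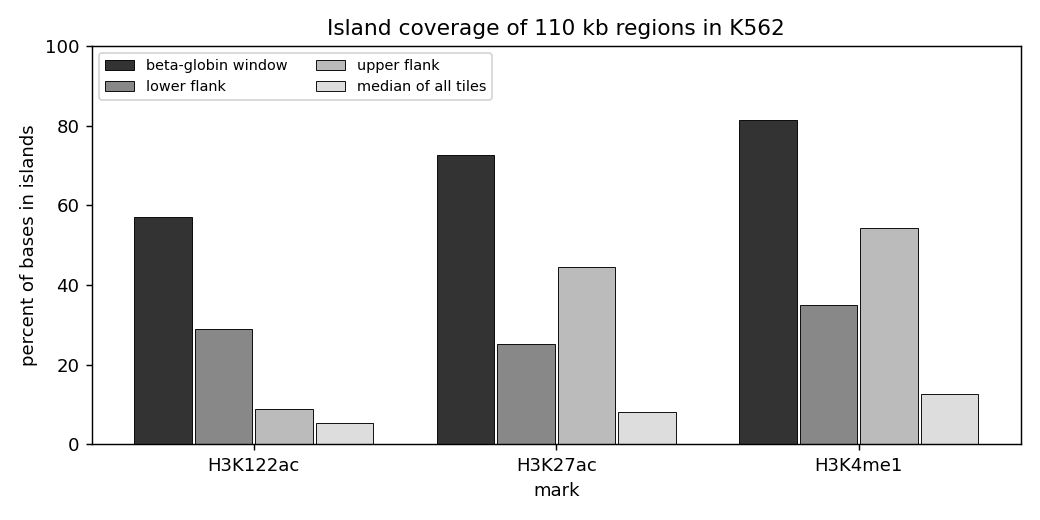
Share of bases in islands (y axis, percent) for each mark (x axis) in the beta-globin window, in the flanks of the same length on the HBB side (lower) and the LCR side (upper), and as the median of all tiles of that length. The window bars reach 57.1%, 72.7% and 81.5% and stand above both flanks for each mark.

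Within the window the antibody libraries gave 4635 reads over 3419 background reads for H3K122ac, 12615 over 4271 for H3K27ac and 13711 over 4478 for H3K4me1. The pooled fold was 5.25 (5.02 to 5.49) for H3K122ac, 4.30 (4.15 to 4.45) for H3K27ac and 5.27 (5.10 to 5.46) for H3K4me1. The flank on the HBB side had a pooled fold of 5.15 for H3K122ac, 2.99 for H3K27ac and 3.76 for H3K4me1, and the flank beyond the LCR had 4.02 for H3K122ac, 3.15 for H3K27ac and 3.85 for H3K4me1. For H3K122ac the interval of the window overlapped that of the flank on the HBB side, 4.83 to 5.48, while for H3K27ac and H3K4me1 the window lay above both flanks. Islands that cross an edge count on both sides of it. Background reads were 51.5 per kb of H3K122ac island in the window, against a median of 52.5 over the whole list.

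The marks were largely superimposed. Every one of the 15 H3K122ac islands met an H3K27ac island and an H3K4me1 island, where 78.1% of the whole H3K122ac list met H3K27ac and 85.8% met H3K4me1. All 8 H3K4me1 islands met H3K122ac and H3K27ac, where 54.2% of the whole H3K4me1 list met H3K122ac and 70.0% met H3K27ac. Of the 28 H3K27ac islands, 20 met H3K122ac and 25 met H3K4me1, where 41.9% of the whole H3K27ac list met H3K122ac and 69.4% met H3K4me1. The islands of the window had a median length of 4200 bp for H3K122ac, 1100 bp for H3K27ac and 10500 bp for H3K4me1, against 1800 bp, 1200 bp and 2000 bp for the same marks over their whole lists. The part that length plays in the overlap was not tested.

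By length, 58800 bp, or 53.5% of the window, lay under all 3 marks. A further 18600 bp (16.9%) carried H3K27ac and H3K4me1 without H3K122ac, and 9000 bp (8.18%) carried H3K4me1 alone. H3K122ac without H3K27ac took up 3200 bp beside H3K4me1 and 400 bp alone. No island of any list covered 17400 bp. The longest of these bare stretches, chr11:5237001-5244600 of 7600 bp, lay just below the island over HBB, and the next, chr11:5282001-5284600 of 2600 bp, lay between HBG2 and HBE1.

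**Figure D2:**
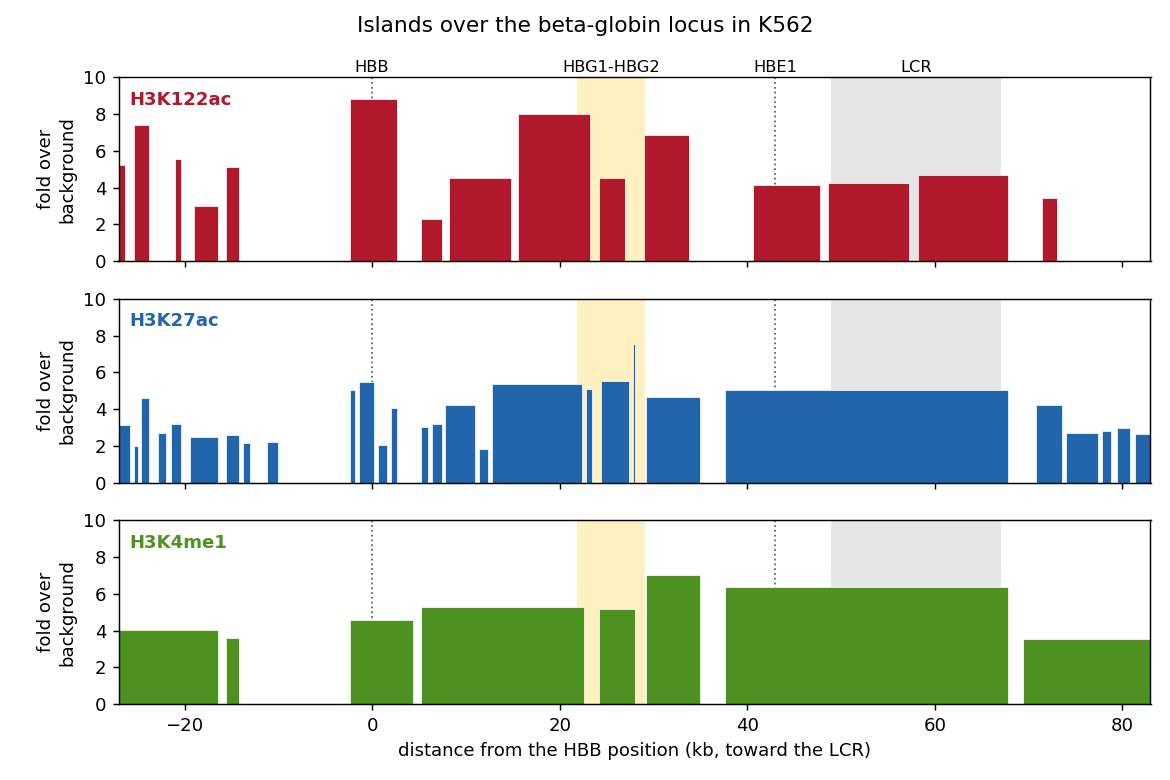
Fold over background (y axis, the authors' values) of each island along the locus, in 1 panel per mark; the x axis is the distance from the HBB position in kb, toward the LCR, and the width of a bar is the length of the island. Shading marks HBG1-HBG2 and the LCR and dotted lines HBB and HBE1. The tallest H3K122ac bar, 8.81, stands over HBB, whereas for H3K4me1 the tallest, 7.03, stands between HBG2 and HBE1. The counting intervals of both overlap those of other islands of the same mark.

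Broad coverage stood beside folds that were moderate for H3K122ac. The folds of the 15 H3K122ac islands ran from 2.30 to 8.81 with a median of 4.67, which is below the median of the whole list, 5.34. Only 5 of them lay above that median. Those of the 28 H3K27ac islands ran from 1.81 to 7.51 with a median of 3.17, against 2.27 for the list, and 23 lay above it. Those of the 8 H3K4me1 islands ran from 3.57 to 7.03 with a median of 4.88, against 2.72 for the list, and all 8 lay above it.

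A fold of 3 or more was reached by 14 of 15 H3K122ac islands, 16 of 28 H3K27ac islands and 8 of 8 H3K4me1 islands. The same was true of 77.6%, 27.9% and 42.4% of the whole H3K122ac, H3K27ac and H3K4me1 lists. Ranked within the list, the H3K122ac islands had 11.9 to 72.5% of their list below them, and none was in the highest 10%. H3K27ac islands had 25.9 to 97.9% below them, with 8 in the highest 10%, and H3K4me1 islands 70.0 to 98.4%, with 4. These shares depend on how many islands a list holds and how weak its weakest are, so they do not order the marks. Counted from the top, the median rank of the window's islands was 41140 of 72662 for H3K122ac, 42923 of 173981 for H3K27ac and 13473 of 113669 for H3K4me1. Such ranks also depend on how finely a list is split into islands, so they do not order the marks either. The largest q-value in the authors' deposited lists for an island here was 6.22e-11 for H3K122ac, 7.79e-06 for H3K27ac and 3.05e-40 for H3K4me1.

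**Figure D3:**
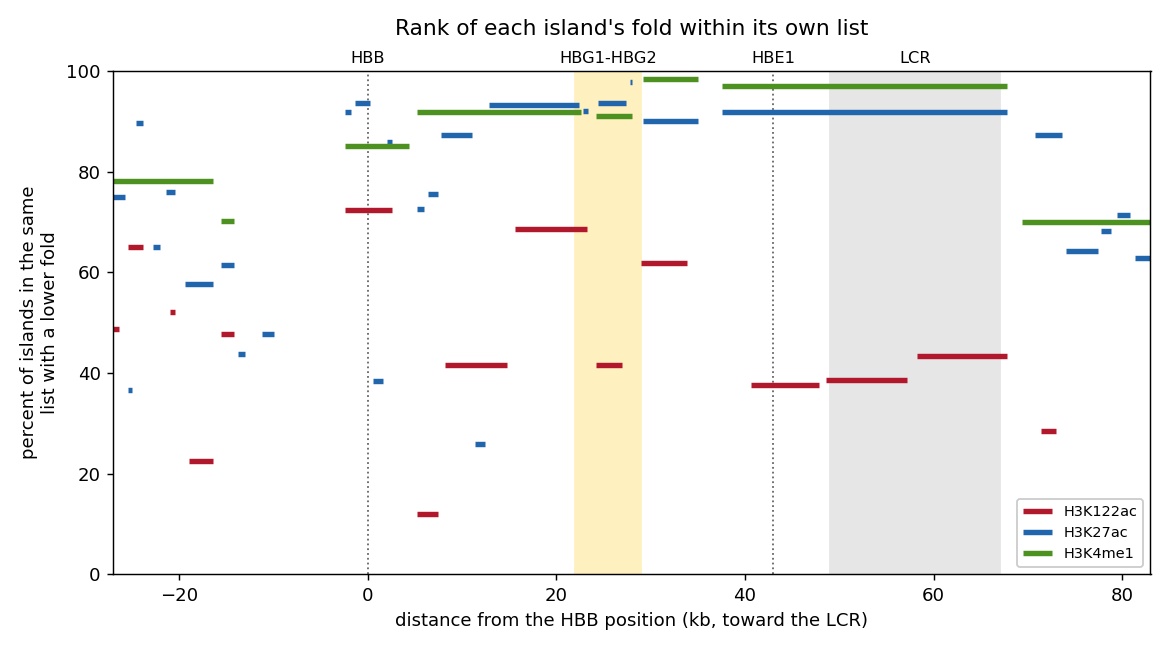
Percent of islands in the same list with a lower fold (y axis) for every island of the window, drawn as a line over its extent; the x axis is the distance from the HBB position in kb, toward the LCR. The 15 H3K122ac islands lie between 11.9 and 72.5, while the H3K4me1 islands all lie at 70.0 or above.

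At HBB, the adult beta-globin gene, the highest H3K122ac fold of the locus was called. Its interval overlaps those of several other islands, including the next, near HBG1, and chr11:5221601-5223200 with 7.40 (5.59 to 9.86). The island chr11:5244601-5249600 held 603 H3K122ac reads over 265 background reads, a fold of 8.81 (7.61 to 10.2), with 72.5% of the list below it. H3K27ac was split into 4 islands over the same 5000 bp. H3K27ac islands could bridge only 200 bp, where those of H3K122ac and H3K4me1 could bridge 600 bp. The 1200 bp between the 4 islands held 13 background reads, or 10.8 per kb, against 66.3 per kb inside them. Joining across 600 bp turned the 28 H3K27ac islands of the window into 11, and it joined these 4, which lie less than 600 bp apart. What the authors' caller would have given with the wider bridge, and the part of the background in this split, was not tested. The H3K27ac island that covers the HBB position, chr11:5245601-5247200, held 499 reads over 132, a fold of 5.50 (4.53 to 6.71), with 93.7% of the list below it. HBB was given only as an approximate position, so which of the 4 islands lies over its promoter was not determined. The other H3K27ac islands over the 5000 bp had folds of 5.02 over 11 background reads, 2.03 over 81 and 4.05 over 28. The first of these folds has an interval of 2.52 to 10.9. The H3K27ac fold was thus uneven along the gene region. In the same order these islands held 63.3, 113 and 130 H3K27ac reads per kb over 18.3, 81.0 and 46.7 background reads per kb. Their folds did not follow the order of their H3K27ac reads.

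Excess H3K27ac reads, the antibody reads divided by the library ratio less the background reads, came to 371 per kb in chr11:5245601-5247200. This was more than in 99.8% of the list. That island was singled out for this measure after its values were seen. Its background, 82.5 reads per kb, was also high, against 51.1 per kb over all H3K27ac islands of the window. H3K4me1 ran on further, over chr11:5244601-5251400, with 964 reads over 364, a fold of 4.56 (4.04 to 5.16) and 85.1% of the list below it. The 1800 bp by which the H3K4me1 island exceeds the H3K122ac island held 99 background reads, or 55.0 per kb, close to the 53.0 per kb inside the H3K122ac island, so background coverage was present where H3K122ac was not called.

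Between HBB and HBG1, the interval that holds HBD, the H3K122ac level was lowest at its HBB end and high at its HBG1 end. H3K122ac had 76 reads over 128 in chr11:5252201-5254400, the lowest fold of the locus at 2.30 (1.71 to 3.08). It had 432 over 372 in chr11:5255201-5261800, a fold of 4.50 (3.91 to 5.18). In chr11:5262601-5270200, which runs into HBG1, it had 780 reads over 377, a fold of 8.01 (7.07 to 9.08), the second highest of the locus and the most H3K122ac reads of any island in it. These intervals do not overlap one another, but the first and last overlap those of islands elsewhere in the locus. The first overlaps that of chr11:5228001-5230600, with a fold of 3.01 (2.31 to 3.92), and the last that of the island over HBB.

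H3K27ac over the same interval was lowest in chr11:5258401-5259400, with 108 reads over 87 and a fold of 1.81 (1.35 to 2.42). It was highest in the 9600 bp of chr11:5259801-5269400, with 1908 reads over 517 and a fold of 5.37 (4.87 to 5.93), an island longer than 99.2% of its list. Background was 87.0 reads per kb in the lowest island and 53.9 per kb in the highest, and the part of this in their folds was not tested. H3K4me1 spanned the interval as a single island, chr11:5252201-5269600, with 2847 reads over 924 and a fold of 5.31 (4.93 to 5.72), so its level within the interval was not resolved. Pooled over the islands that meet this H3K4me1 island, the fold was 5.69 for H3K122ac and 4.50 (4.17 to 4.86) for H3K27ac.

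HBG1 and HBG2, the fetal genes, are near-identical copies, so reads from one can be placed on the other or lost, and values over them are uncertain. Over the 7000 bp given for the pair, 2 H3K122ac, 4 H3K27ac and 2 H3K4me1 islands lay partly or wholly, covering 57.1, 60.0 and 62.9% of it. Stretches of 800 bp at chr11:5270401-5271200 and 1000 bp at chr11:5275001-5276000 had no island of any mark. Background was thin beside them. It was 14 reads over the 600 bp of chr11:5269801-5270400, or 23.3 per kb, and 5 reads over the 600 bp of the H3K4me1 island chr11:5271201-5275000 that lie outside H3K27ac islands, or 8.33 per kb. Background this low was not particular to these genes. Between H3K27ac islands it was 5.0 per kb within chr11:5252201-5254400 and 12.5 per kb within chr11:5221601-5223200. The part of read placement in the gaps at HBG1 and HBG2 was not tested.

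Between the copies, H3K122ac had 136 reads over 117 in chr11:5271201-5274000, a fold of 4.50 (3.49 to 5.81). H3K27ac had 534 over 141 in chr11:5271401-5274400, a fold of 5.51 (4.57 to 6.68), and H3K4me1 459 over 152 in chr11:5271201-5275000, a fold of 5.20 (4.32 to 6.29). These folds had 41.7% of the H3K122ac list, 93.8% of the H3K27ac list and 91.2% of the H3K4me1 list below them. The highest H3K27ac fold of the locus, 7.51 (3.09 to 22.0), was in chr11:5274801-5275000 and rested on 31 reads over 6 background reads, so its rank is not settled by its counts.

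Just above HBG2, in the interval toward HBE1, H3K4me1 reached its highest fold of the locus. Its interval overlaps that of the next H3K4me1 island, chr11:5284601-5314800, at 6.36 (6.02 to 6.73), so this rank is not settled by the counts. Over the identical island chr11:5276201-5282000, with 219 background reads, there were 894 H3K4me1 and 705 H3K27ac reads. The folds were 7.03 (6.06 to 8.19) for H3K4me1 and 4.68 (4.02 to 5.47) for H3K27ac, with 98.4% of the H3K4me1 list and 90.2% of the H3K27ac list below them. H3K122ac lay over chr11:5276001-5280800, with 323 reads over 182 and a fold of 6.87 (5.71 to 8.29), with 61.8% of its list below it. The ratio of the H3K4me1 to the H3K27ac fold, 1.50, was above the 1.17 that was the median of all islands with identical ends in those lists, and 78.6% of these had a lower one.

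HBE1, the embryonic gene, and the whole LCR lay in a single domain, chr11:5284601-5314800, called with identical ends for H3K27ac and H3K4me1. These 30200 bp held 5453 H3K27ac and 5821 H3K4me1 reads over 1576 background reads, for folds of 5.03 (4.76 to 5.33) and 6.36 (6.02 to 6.73). The H3K27ac island was the 28th longest of 173981 and the 52nd by reads, and the H3K4me1 island the 324th longest of 113669 and the 160th by reads. Neither list therefore separates HBE1 from the LCR. In fold they had 91.9% of the H3K27ac list and 97.0% of the H3K4me1 list below them.

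H3K122ac split the same domain into 3 islands. The one over HBE1, chr11:5287601-5294800, had 418 reads over 391 and a fold of 4.14 (3.60 to 4.76). Those over the LCR were chr11:5295601-5304200, with 498 reads over 455 and a fold of 4.24 (3.72 to 4.82), and chr11:5305201-5314800, with 670 over 556 and a fold of 4.67 (4.16 to 5.23). Their intervals overlap, so no difference between HBE1 and the LCR was detectable at this depth. All 3 were long, with 94.9 to 97.6% of the list shorter, and of ordinary fold, with 37.6 to 43.4% of the list lower. The 4800 bp of the domain outside them held 174 background reads, or 36.2 per kb, against 55.2 per kb inside them.

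The domain was also set beside HBB. This comparison was chosen after the values were seen, and since HBB has the highest H3K122ac fold of the locus, a ratio below 1 for that mark was fixed by the choice. The pooled fold of H3K122ac was 4.38 (4.07 to 4.71) in the domain and 8.81 (7.61 to 10.2) at HBB, a ratio of 0.497 (0.421 to 0.586). For H3K4me1 it was 6.36 in the domain and 4.56 at HBB, a ratio of 1.39 (1.22 to 1.60). For H3K27ac it was 5.03 in the domain and 4.20 (3.64 to 4.87) over the 4 islands at HBB, a ratio of 1.20 (1.02 to 1.40), which turned to 0.915 (0.744 to 1.12) when only the island over the HBB position was used. Background per kb of island was alike for H3K122ac, at 55.2 in the domain and 53.0 at HBB, and for H3K4me1, at 52.2 in the domain and 53.5 at HBB. For H3K27ac it was lower in the domain, at 52.2, than over the 4 islands at HBB, at 66.3, and the part of this in the H3K27ac ratio was not tested.

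By segment, the pooled H3K122ac fold was higher below HBG1 than in the LCR, also with islands placed by their midpoint. Both ways, the segment below HBG1 holds the islands of highest and second highest fold, 8.81 and 8.01. Its other islands ran from 2.30 to 7.40, around the LCR islands at 4.24 and 4.67. The value of the segment without its highest islands was not computed. The pooled H3K122ac fold was 5.98 (5.61 to 6.37) below HBG1, 7.18 (6.43 to 8.03) at HBG1 and HBG2, 4.67 (4.29 to 5.07) between HBG2 and the LCR, 4.47 (4.11 to 4.87) in the LCR and 4.49 (4.03 to 4.99) beyond it. For H3K27ac the values in the same order of segments were 3.85, 5.41, 4.99, 5.03 and 4.54. For H3K4me1 they were 4.73, 5.29, 6.44, 6.36 and 5.57. An island that spans segments counts in each. With islands placed by their midpoint, the H3K122ac fold was 4.50 at HBG1 and HBG2, since chr11:5262601-5270200 then belonged to the segment below. It was then 6.07 below HBG1 and 5.01 between HBG2 and the LCR, so HBG1 and HBG2 no longer had the highest value. Beyond the LCR, values by midpoint left out the domain, which reaches 800 bp into that segment for H3K27ac and H3K4me1, and the H3K122ac island that ends with it. They were 3.42 for H3K122ac, 3.10 for H3K27ac and 3.57 for H3K4me1, the lowest of the 5 segments by midpoint for each mark.

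**Figure D4:**
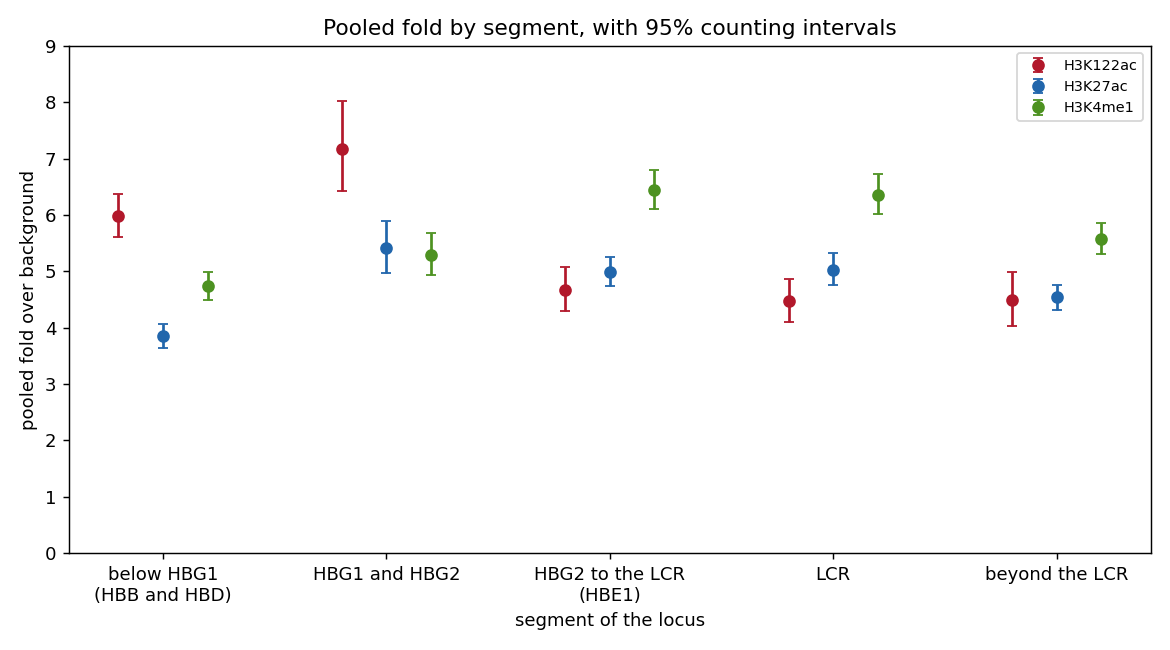
Pooled fold over background (y axis) of the islands that overlap each of 5 segments of the locus (x axis, from the HBB side to beyond the LCR), by mark; points are ratios of summed counts and bars exact 95% counting intervals. H3K122ac is highest at HBG1 and HBG2 with 7.18 and H3K4me1 between HBG2 and the LCR with 6.44. Islands that span segments appear in more than 1. Placed by midpoint, H3K122ac has 4.50 at HBG1 and HBG2, less than the 6.07 of the segment below HBG1. The H3K4me1 interval overlaps that of the LCR, and both segments hold the same long island.

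In the LCR itself 17000 of the 18000 bp, or 94.4%, lay under all 3 marks, the largest such share of any of the 5 segments. Beyond it they parted. Over the 16000 bp from the LCR to the edge of the window H3K122ac covered 15.0%, H3K27ac 68.8% and H3K4me1 90.0%. The only separate H3K122ac island there, chr11:5318401-5320000, had 83 reads over 94 and a fold of 3.42 (2.51 to 4.64). It lay within the H3K4me1 island chr11:5316401-5330600, which had 1283 reads over 619 and a fold of 3.57 (3.24 to 3.94). The 12600 bp of that island without H3K122ac held 525 background reads, or 41.7 per kb, and 4 H3K27ac islands with folds from 2.62 to 2.97. Another H3K27ac island, chr11:5317801-5320600, spans the H3K122ac island and has 1200 bp outside it. It had 386 reads over 133 and a fold of 4.22 (3.46 to 5.18), the highest of the H3K27ac islands wholly beyond the LCR.

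Below HBB, H3K4me1 ran unbroken over the 14200 bp of chr11:5216401-5230600, with 1285 reads over 548 and a fold of 4.04 (3.65 to 4.47), while H3K122ac and H3K27ac were called there in shorter pieces. From this point to chr11:5237000, H3K122ac had 5 islands, with folds from 3.01 to 7.40. The highest of these, chr11:5221601-5223200, had 149 reads over 78 and a fold of 7.40 (5.59 to 9.86). The island chr11:5231401-5232800 was called with identical ends in all 3 lists, and over its 76 background reads there were 100 H3K122ac, 135 H3K27ac and 158 H3K4me1 reads. Its folds were 5.09 (3.74 to 6.96), 2.58 (1.94 to 3.47) and 3.58 (2.71 to 4.77), with 47.8, 61.5 and 70.2% of the H3K122ac, H3K27ac and H3K4me1 lists below them. H3K27ac alone was called at chr11:5233201-5234000 and chr11:5235801-5237000, with folds of 2.14 and 2.22.

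Outside the window the nearest islands were weak on the HBB side and mixed on the LCR side. On the HBB side the nearest H3K122ac island lay 8400 bp away with a fold of 1.58, the nearest H3K27ac island 7000 bp away with 1.54 and the nearest H3K4me1 island 7400 bp away with 1.40. On the LCR side H3K122ac was next called 25000 bp away with a fold of 3.70, H3K27ac 2400 bp away with 3.76 and H3K4me1 1600 bp away with 2.56. Further out, the highest H3K122ac fold was 13.4 in the flank on the HBB side and 9.15 in the flank beyond the LCR, against 8.81 in the window. For H3K27ac and H3K4me1 the window held a higher fold than either flank.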

How the data were processed

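Native chromatin immunoprecipitation libraries of K562 cells were used, 1 per mark, grouped by title. The submitters' processing notes name Bowtie 0.12.8, HOMER 4.3, SICER 1.1 and hg19, without saying what each tool did. Islands were built from 200 bp windows at a false discovery rate of 0.01, per the labels of the lists, and could bridge 200 bp in H3K27ac but 600 bp in H3K122ac and H3K4me1. This splits H3K27ac into more islands. The deposited lists give whole-number counts of antibody and background reads, p-values and q-values from the authors' caller, and a fold, the ratio of counts divided by a library ratio, which was recomputed and constant within each list. The library used as background is not named in the labels.

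Counts were summed over islands. Fold intervals are exact Clopper-Pearson intervals, those of fold ratios exact conditional intervals, and both take the library ratio as fixed. PCR duplicates may make them too narrow. Background reads between nested islands were found by subtraction. Coordinates are 1-based hg19. The members, segments and lists were chosen with earlier results of these data known. The rule for named islands took every island of the window. All entered the counts and figures, and the text names those over the genes and the LCR, per mark the highest in fold, reads and length, and others picked after their values were seen. Regulators of the locus and cell type markers could not be placed without an hg19 annotation and were not scored. The mouse lists were not used. Python 3.11.15, scipy 1.17.1 and pandas 2.3.3 were used, and the code was tested on simulated islands.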

Additional observations from a re-analysis of the deposited data

How the results depend on the processing

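No paired analysis was possible because each K562 mark had 1 library, and no replicate could be left out. Of 93 values under alternatives, 78 stayed within the counting interval of the main value or within 1.5 times a count or length, 14 moved and 1 reversed. Joining across 600 bp turned 28 H3K27ac islands into 11, and a fold of 3 or more left 16. The median of deposited folds was 4.67 for H3K122ac, 3.17 for H3K27ac and 4.88 for H3K4me1, against pooled folds of 5.25, 4.30 and 5.27. Without chr11:5244601-5249600 the pooled H3K122ac fold was 4.95, and with islands wholly inside the window that of H3K4me1 was 5.80. By midpoint, the fold was 4.50 for H3K122ac at HBG1 and HBG2, and 4.68 for H3K27ac and 7.03 for H3K4me1 between HBG2 and the LCR. Beyond the LCR it was 3.42 for H3K122ac, 3.10 for H3K27ac and 3.57 for H3K4me1. Among islands of its length or longer, the H3K122ac island over HBB had 61.4% below it. The H3K27ac ratio of domain to HBB reversed to 0.915 with the island over the HBB position alone, an alternative chosen after seeing the data. The H3K122ac library, with a ratio of 0.258 to background, was the shallowest, so weak H3K122ac may be missed.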
